A study of Mus musculus with 81 samples.

Results

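The sites described here were open chromatin peaks that appeared at 12h of reprogramming in mouse embryonic fibroblasts and were listed neither at 6h nor at 36h. They are peaks of the 12h bulk list of the nascent arm that share at least 1 bp with a peak of the 12h bulk list of the mature arm and with no peak of the 4 bulk lists of 6h and 36h. The rule found 2352 such sites among 199056 peaks of the 12h list, of which 171063 were found in both arms. They are called 12h-only sites below, and the other 168711 peaks found in both arms are called other 12h peaks. The sites were thus chosen by the presence and absence of peaks in those 6 lists, and "only" refers to them: 61.6% of the 12h-only sites had a peak in at least 1 of 6 libraries made at 14h, and 31.8% in a bulk list of the embryonic stem (ES) cell course.

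Accessibility was measured by ATAC-seq, in which the transposase Tn5 cuts exposed DNA, in 81 samples that the labels place in 27 groups of 3. The fibroblasts (Black6-129X1/SvJ, passages 2-3) carried Col1a1::tetOP-OKSM het, R26-M2rtTA het and Oct4GFP het, so that 2 µg/mL doxycycline switched on Oct4, Klf4, Sox2 and Myc in every reprogramming group. At 6h, 12h and 36h, and at each time of the ES cell course described below, cells took up the nucleotide analog EdU at 20 µM for 10 min. Nascent samples were taken at once and mature samples 2 h after the label, with a chase in 10 µM thymidine. DNA that the streptavidin pulldown did not bind gave the bulk samples, 1 set for the nascent arm and 1 for the mature arm. At 60h, fibroblasts were sorted by CellViolet, a dye that is diluted at each division, into fractions Q1 to Q4. In the aphidicolin experiment, 5 µg/mL of this drug, which blocks the replicative DNA polymerases, was present from 4 h on, for 10 h, and 3 treated and 3 untreated samples were harvested at 14h, both with doxycycline. The second course took WT ES cells (129/Ola, passages 35-45) at 0h through 9h to epiblast-like cells (EpiLC) at 48h in FGF2 and Activin A. The labels name no promoter or clone limits beyond these alleles, and they do not say whether replicates were separate cultures.

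When the reprogramming factors are switched on in fibroblasts, they bind many places in the genome long before a pluripotent state exists. Fibroblast enhancers, which are rich in AP-1, TEAD and RUNX motifs, lose accessibility over the first days, while sites used by pluripotent cells open gradually and some sites open for a short time and close again. Behind each replication fork nucleosomes are put back first, and transcription factors have to regain access to the copied DNA.

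Sequence could be shown for sites at promoters, because RefSeq promoter windows (assembly GRCm38.p6, with the same coordinates as mm10, the build of the lists) run from 250 bases before to 50 after a start. Of 2290 12h-only sites on the chromosomes these windows cover, 34 shared bases with 40 of 32851 windows, which belong to 16 protein-coding genes and to non-coding genes. In 11 protein-coding genes a site covered at least 100 of the bases before the start, and in 3 of these that stretch lay outside every gene model. These 3 are printed as examples of promoter sequence under a 12h-only site, with matches to the fixed motifs in capitals.
Raet1d, chr10:22361644-22361860, plus strand: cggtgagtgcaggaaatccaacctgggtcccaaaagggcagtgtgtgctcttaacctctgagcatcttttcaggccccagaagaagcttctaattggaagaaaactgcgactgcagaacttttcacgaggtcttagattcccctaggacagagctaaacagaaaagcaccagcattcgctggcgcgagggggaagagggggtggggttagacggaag
Tex19.1, chr11:121145946-121146142, plus strand: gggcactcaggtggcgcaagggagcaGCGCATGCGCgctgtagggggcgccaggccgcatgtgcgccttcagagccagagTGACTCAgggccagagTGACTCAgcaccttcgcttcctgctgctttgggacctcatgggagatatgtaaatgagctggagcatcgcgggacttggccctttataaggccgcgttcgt
Spata20, chr11:94485397-94485527, minus strand: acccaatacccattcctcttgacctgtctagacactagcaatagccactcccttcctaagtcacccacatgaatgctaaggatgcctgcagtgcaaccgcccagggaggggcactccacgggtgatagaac

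Tex19.1, a germ line gene that restrains retrotransposons and is active in pluripotent cells, has 1 match to the NRF1 motif and 2 to the AP-1 motif in this stretch. Its 12h-only site scored 204 in the nascent arm list and 90 in the mature arm list, and the ES cell course had peaks of score 2963 at 0h, 2287 at 9h and 895 at 48h there. At 14h the site was listed in 0 of 3 aphidicolin and 2 of 3 untreated libraries. Raet1d encodes a ligand of the NKG2D receptor of natural killer cells, and no motif of the list matched in the bases shown. Its site scored 519 and 474 in the 2 arms at 12h and was listed in 2 of 3 aphidicolin and 2 of 3 untreated libraries at 14h, with ES cell course scores of 1013, 517 and 819. Raet1d has near-identical copies in the mouse genome, so its reads may be shared with them and its peak is uncertain. The Spata20 site scored 112 and 162 at 12h, was listed in 0 of 3 aphidicolin and 1 of 3 untreated libraries at 14h, and had no peak in the ES cell course bulk lists. The remaining 8 genes include Oxtr, the oxytocin receptor, Lipe, the hormone-sensitive lipase, and Grid2ip, a scaffold of glutamate receptors.

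Motifs were counted on both strands of the whole windows as a description. The AP-1 motif TGANTCA was in 7 of the 40 windows with a 12h-only site (17.5%) and in 7.81% of all windows, and the TEAD motif ACATTCC was in 5 (12.5%) and in 3.85%. RUNX (AACCACA) was in 4 (10%) and 5.27%, KLF (CCACACCC) in 3 (7.5%) and 3.56%, and the E-box CACGTG in 4 (10%) and 7.15%. The NRF1 motif was in 1 (2.5%) and 0.97%, and CRE (TGACGTCA) in 1 (2.5%) and 1.79%. The octamer ATTTGCAT, SOX (CCATTGT) and the CTCF core motif were in 0 of the 40, and in 1.74%, 3.66% and 1.15% of all windows. Windows of 1 gene can overlap, as for Gpr19 among the TEAD windows, and the 34 sites are a small part of the 2352. All windows were counted whether or not a 12h peak lies there, so the shares do not compare 12h-only sites with other open sites. A motif can also lie outside the site, which shared 21 bases with 1 window of Gm29538. In the bases before the start that a site covered, AP-1 matched at Tex19.1 and Grid2ip alone of the 11 genes.

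The 12h-only sites were weak and narrow among the peaks of their list. The authors' peak score had a median of 154 (32 to 1077, quartiles 100 and 239) in the nascent arm list, against a median of 806 for other 12h peaks, and the median width was 177 bp against 359 bp. The mature arm peak on the same sites had a median score of 130, and 62 sites had one above 1000. Turned to the other times, the same rule gave 12657 sites at 6h, 7.36% of the 172004 peaks found in both arms, and 3976 sites at 36h, 3.16% of 125836, while the 12h-only sites were 1.37% of 171063. Within their own lists, the 6h-only and 36h-only sites had median scores of 150 and 151. These values belong to the rule, which takes peaks that neighbouring lists do not call, and are a description. They depend on how many peaks each list holds: the 12h lists hold 199056 and 179656 peaks, the 6h lists 177275 and 203188 and the 36h lists 137173 and 142681.

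At its edge the rule separates sites by single bases. The 12h-only site nearest to a 6h or 36h peak, at chr1:36697268-36697415, lay 1 bp from it with scores of 46 and 85 in the 2 arms. The next, at chr1:64756142-64756279 and chr2:127299902-127300027, lay 3 and 8 bp away. Just outside, the 12h peak at chr19:43949366-43949525 overlapped one by 1 bp with scores of 49 and 59, and those at chr11:109651579-109651847 and chr13:63306113-63306241 by 2 bp. Only 4 sites lay within 10 bp of such a peak, but 566 (24.1%) lay within 500 bp, and the median gap was 1655.5 bp.

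Most 12h-only sites lay away from gene ends. Of the 2352, 114 (4.85%, Wilson 95% interval 4.05 to 5.79) lay within 1 kb of an end of a protein-coding gene model, against 11.2% of other 12h peaks, 2.51% of 6h-only and 4.58% of 36h-only sites. Other 12h peaks weighted to the same scores, by bins of score, had 6.22%, and to the same scores and widths 5.09%. A further 1116 sites (47.4%) were inside gene models and 1122 (47.7%) between genes, and the median distance to a gene end was 26137 bp. The intervals cover counting error only, since each list is 1 value per group. The sites were scattered: only 55 had the next one within 10 kb, and the loci with the most, taken with 10 kb on each side, held 4. Those 2 loci were Ebf1, a factor of B cell and mesenchymal lineages, and Fmn1, an actin nucleator, with 61 and 42 other 12h peaks each. A further 14 genes held 3, among them Rbms3, Glis3, Adam12 and Fsip1, and the 16 gene models span 94.6 to 2271 kb. The X chromosome held 80 sites (3.40%), against 2.62% of other 12h peaks.

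Libraries the rule did not use showed many 12h-only sites at 14h. In the aphidicolin experiment, 906, 1158 and 1081 of the 2352 sites had a peak in the 3 aphidicolin libraries (38.5%, 49.2% and 46.0%), against 698, 706 and 564 in the untreated libraries (29.7%, 30.02% and 24.0%). Each aphidicolin library was above each untreated one. Their lists were also longer, with 148292, 163947 and 158327 peaks, against 129546, 126958 and 116939 untreated, and what part of the gap this accounts for was not tested. The 6h-only sites reached 3.93% to 5.99% in aphidicolin and 0.67% to 1.31% in untreated libraries, and the 36h-only sites 23.2% to 33.3% and 9.31% to 12.1%. Other 12h peaks were at 80.9% or below and at 66.2% or below. Of the 12h-only sites, 312 were listed in all 6 libraries and 902 in none.

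**Figure D1:**
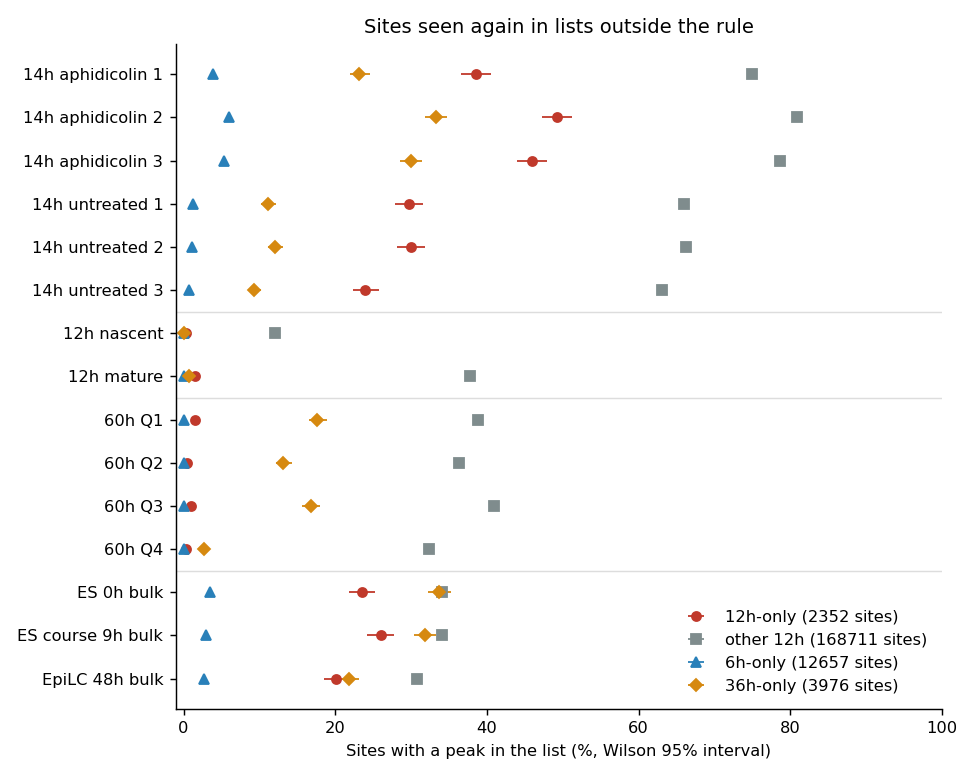
Share of sites (x axis, %) with a peak in each list outside the rule (y axis), for 12h-only, other 12h, 6h-only and 36h-only sites, with Wilson 95% intervals that cover counting error only. In the untreated 14h libraries the 12h-only sites stand at 24.0% to 30.02%, between other 12h peaks and the 36h-only sites, and at 60h they stand at 1.53% or below.

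Against other 12h peaks weighted to the same bins of score the 14h shares were closer. At least 1 untreated library listed 40.6% of the 12h-only sites and 72.7% of other 12h peaks, a difference of -32.1 percentage points. With other 12h peaks weighted to the same bins of score the difference was -0.90, and with the same bins of score and width it was 3.68. For at least 1 aphidicolin library the values were 57.9% and 84.2%, a difference of -26.3, then -5.42 and -0.43. Among sites that scored 30 to 99 at 12h, 33.5% of the 12h-only sites and 28.98% of other 12h peaks were listed in an untreated library, and at 400 or more the shares were 60.2% and 85.6%.

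By 60h few of the sites were listed. Fractions Q1 to Q4 had peaks on 36, 11, 23 and 9 of the 2352 sites (1.53%, 0.47%, 0.98% and 0.38%), and at least 1 fraction on 53 (2.25%, interval 1.73 to 2.94). Other 12h peaks had 32.3% to 41.0%, and the 36h-only sites 17.7% in Q1 and 2.67% in Q4. The shortfall against other 12h peaks stayed when scores were matched by bins, at -14.6 percentage points, and when scores and widths were, at -11.3. The rule itself asks for absence at 36h, so a low share at a later time is partly its own result. The 60h lists hold 57762 to 73518 peaks, fewer than any 12h or 14h list of bulk chromatin.

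**Figure D2:**
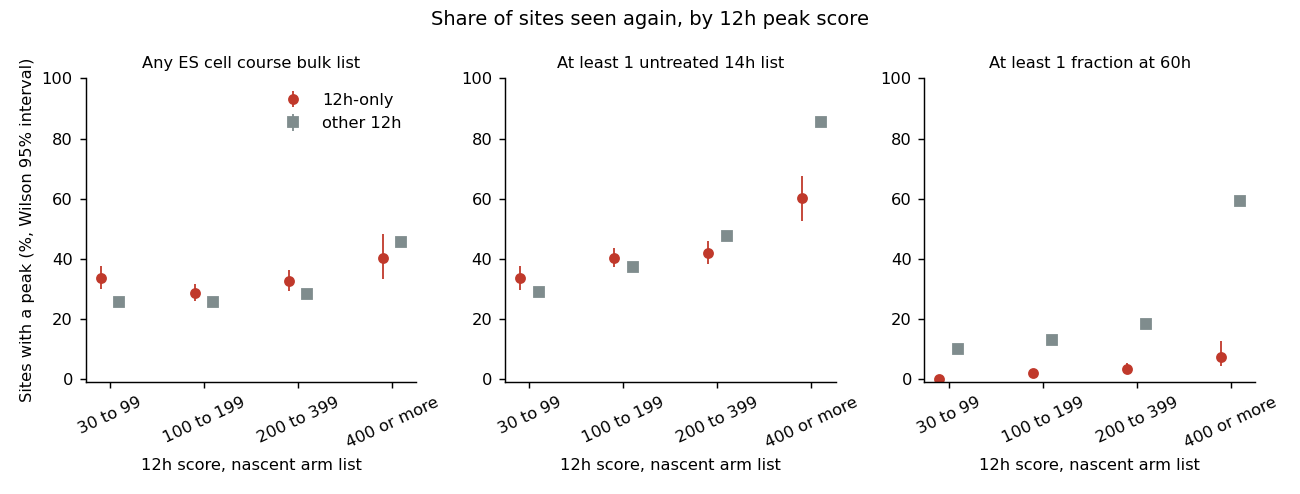
Share of sites (y axis, %) with a peak in any ES cell course bulk list, in at least 1 untreated 14h library and in at least 1 60h fraction, by the score of the 12h peak (x axis), for 12h-only sites and other 12h peaks with Wilson 95% intervals. At scores of 30 to 99 the ES cell course share is 33.7% for 12h-only sites and 25.5% for other 12h peaks, and at 60h the 12h-only sites are lower in each bin.

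Many of the sites were also open in the pluripotent cells of the second course. The bulk lists at 0h, 9h and 48h had peaks on 554, 611 and 472 of the 2352 sites (23.6%, 26.0% and 20.1%), and any of them on 747 (31.8%, interval 29.9 to 33.7). The 6h-only sites reached 5.47% in any of these lists and the 36h-only sites 39.8%. Set against all other 12h peaks, with 40.1%, the 12h-only sites were 8.35 percentage points lower. The sign turned with matched bins of score (4.05 points higher) and with matched bins of score and width (7.99 points higher). For single lists the matched differences were 1.68, 5.18 and 2.42 points at 0h, 9h and 48h. All 3 lists held 343 of the sites, 0h and 9h without 48h held 131, and 62, 82 and 56 were in the 0h, 9h or 48h list alone.

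The 747 sites with an ES cell course peak were seen more often at 14h than the 1605 without. At least 1 untreated library listed 56.6% (interval 53.05 to 60.1) and 33.1% (30.8 to 35.4), and at least 1 aphidicolin library 68.7% and 52.8%, with median 12h scores of 156 and 149. Gene ends were also nearer, with 7.497% and 3.61% within 1 kb. At 60h, 3.35% and 1.74% were listed.

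On newly replicated DNA the sites were almost absent from the lists. The nascent list at 12h had a peak on 7 of the 2352 sites (0.30%, interval 0.14 to 0.61) and the mature list on 37 (1.57%, 1.14 to 2.16), against 12.1% and 37.8% of other 12h peaks. With matched bins of score and width the differences were -0.23 and -5.42 percentage points. The nascent and mature lists at 6h and the mature list at 36h had 0 of 2352, and the nascent list at 36h had 4. These lists hold 3222 to 62704 peaks, fewer than either bulk list of 12h, so absence here is absence from a shorter list. In the ES cell course, the mature lists at 0h, 9h and 48h held 10.5%, 16.7% and 10.3% of the sites and the nascent lists 1.45%, 1.403% and 2.68%.

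The 7 sites with a nascent peak at 12h lie at or in Acin1, a splicing-associated factor of apoptotic chromatin condensation, Arhgap23, Stag2, a cohesin subunit, Pdzd7, Mark4, a microtubule-affinity kinase, Dact3, an inhibitor of Wnt signalling, and Junb, an AP-1 subunit. All 7 also had an ES cell course bulk peak, and their nascent scores were 35 to 132. The Acin1 site, chr14:54650704-54650831 inside the gene, was the only one of the 7 with a mature peak at 12h (score 303). The Junb site, chr8:84977371-84978103, is inside the Junb gene model and 733 bp wide. It lies 322 bp from a 6h or 36h peak and 264 bp from the next 12h peak, and it had a nascent score of 35 at 12h and 72 at 36h. The site listed most widely was in Dact3, chr7:16885304-16885644, with 17 of the 25 lists outside the rule. Sites in Rgs14, a regulator of G protein signalling, in Tulp2 and 14508 bp from the mitotic kinesin gene Kif14 each had 15, while 694 sites (29.5%) had a peak in none of the 25.

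Ranked by the weaker of the 2 arm scores at 12h, the strongest site lay 155673 bp from the nearest gene end, that of Sec23a, a COPII coat subunit. At chr12:58802538-58802711, it scored 1077 in the nascent arm list and 815 in the mature arm list, and it lay 19884 bp from the nearest 6h or 36h peak. The ES cell course listed it with scores of 1785, 1391 and 1688, and at 14h it had a peak in all 3 aphidicolin libraries and in 0 untreated ones. Its count region held 2.49, 2.31 and 2.25 CPM (counts scaled to library size) with aphidicolin and 1.97, 1.78 and 2.17 CPM untreated. The groups did not overlap, but the log2 fold change of 0.25 (SE 0.15) did not pass the edgeR test described below (adjusted p = 0.197), except with library totals (0.41, adjusted p = 0.0401). This region entered the count table by the aphidicolin lists alone, so its higher values, also with library totals, are a description and support nothing further. The next 9 lie near Klhl15, Ankrd55, Lasp1, Slc38a9, Orai1 and Wnt4 or inside Adam9, Pknox2 and Vamp9, with lower arm scores of 485 to 645. Of these 10 sites, 6 had an ES cell course peak, 3 had a peak in Q1 at 60h (Ankrd55, Vamp9 and Orai1) and 9 had one in at least 1 aphidicolin library. The Adam9 region had 6.36, 6.02 and 6.11 CPM with aphidicolin and 8.31, 7.55 and 8.70 CPM untreated, without overlap (-0.41 on the log2 scale, SE 0.09, adjusted p = 0.00331 by edgeR), and the call was lost with library totals (-0.25). Adam9 encodes a membrane protease, Orai1 a calcium channel of the plasma membrane and Wnt4 a Wnt ligand.

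Counts allowed a test of aphidicolin against untreated cells at part of the sites. The deposited table counts reads in 139000 regions that have a peak in all 3 aphidicolin or all 3 untreated lists. Of its regions, 789 overlap 790 of the 12h-only sites. An overlap of 1 bp or more was enough, and a region can reach beyond its site. At Amotl2 the region starts at chr9:102720053 and the site at chr9:102720173. Counts and fold changes can therefore include reads from DNA beside a site, in a share that was not measured. Library totals were 55158844, 78677381 and 64844155 counts with aphidicolin and 49440524, 47339515 and 41183769 untreated. The 12h-only regions took 0.160%, 0.165% and 0.169% of them with aphidicolin and 0.145%, 0.152% and 0.158% untreated. The way regions entered the table differed between the groups: 410 (52.0%) of the 12h-only regions had a peak in all 3 libraries of the aphidicolin lists alone, 59 of the untreated lists alone and 320 (40.6%) of both, while of all regions 26.1% entered by the aphidicolin lists alone.

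By edgeR's quasi-likelihood test with Benjamini-Hochberg adjustment over 138996 regions (threshold 0.05), 150 of the 789 regions (19.0%) were higher with aphidicolin, where 18.0% of all regions were, and 132 (16.7%) were lower, where 17.9% of all regions were. Either way it is 35.9% of all regions, and the medians were 0.02 on the log2 scale for both. The shares of the 12h-only regions are thus near those of all regions, but the 2 sets entered the table differently. By the aphidicolin lists alone entered 52.0% of the 12h-only regions and 26.1% of all regions. The even split depended on this entry and on the scaling. With offsets that follow region strength, 42 were higher and 205 lower, beside 10.9% and 11.1% of all regions, and the median log2 fold change was -0.20. Among the 320 with a peak in all 6 lists, 39 were higher and 72 lower, beside 16.4% and 15.8%. With library totals, 233 were higher and 76 lower, beside 30.3% and 7.99% of all regions, whose median was then 0.18. Without aphidicolin library 2 the counts were 86 and 100, beside 11.0% and 10.9% of all regions, and without aphidicolin library 3 they were 90 and 99, beside 11.5% in each direction.

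**Figure D3:**
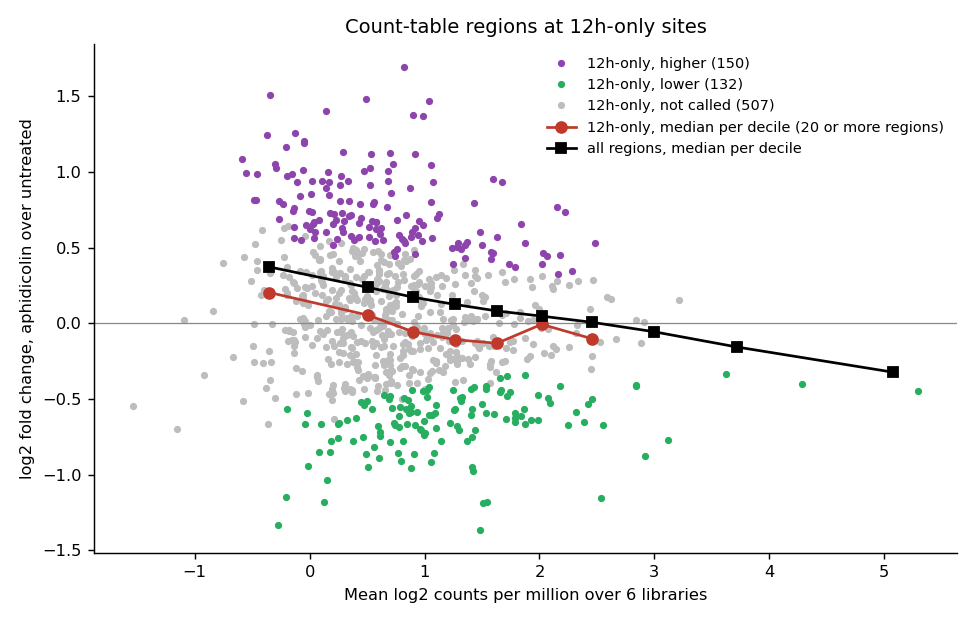
Log2 fold change of aphidicolin over untreated (y axis) against mean log2 CPM over 6 libraries (x axis) for the 789 regions at 12h-only sites, coloured by call, with medians per decile of all regions ranked by strength (at the middle of each range, the outer ranges clipped). The median of all regions goes down with strength from 0.37 to -0.32, and the median of the 12h-only regions is below it in each decile drawn.

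Regions at 12h-only sites were weak, with a median of 0.70 log2 CPM, where the median of all regions was 1.82, and weak regions were called higher more often. In the weakest decile of all regions, 57 of 217 12h-only regions (26.3%) were higher and 15 (6.91%) lower, against 33.0% and 3.29% of all regions. In decile 3, 28 of 146 (19.2%) were higher and 33 (22.6%) lower, against 23.4% and 4.83%. In decile 5, 10 of 63 (15.9%) were higher and 18 (28.6%) lower, against 21.1% and 7.91%. At the regions of 6h-only sites, 178 of 315 were higher and 4 lower (median 0.59), and at those of 36h-only sites 281 of 738 and 48 (median 0.37). Those sites enter the table mainly through aphidicolin lists, with 85.4% and 74.1%.

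Calls also differed by ES cell course peaks. Of 295 12h-only regions with such a peak, 22 (7.46%) were higher and 63 (21.4%) lower with aphidicolin, with a median of -0.13, and of 494 without one, 128 (25.9%) were higher and 69 (14.0%) lower, with a median of 0.16. All other regions had 8.04% and 28.8% with an ES cell course peak (median -0.13), and 26.5% and 8.67% without (median 0.16). Regions of like strength stood apart more: in the weakest decile the medians of 12h-only regions were -0.06 with such a peak and 0.34 without, against 0.18 and 0.46 for all other regions, and in decile 4 they were -0.22 and -0.03, against 0.01 and 0.21. With offsets that follow strength the medians were -0.37 and -0.09, both negative, and with library totals 0.03 and 0.32, both positive. Among regions with a peak in all 6 lists, 7 of 134 with an ES cell course peak (5.22%) were higher and 37 (27.6%) lower, with a median of -0.18. Of 186 without one, 32 (17.2%) were higher and 35 (18.8%) lower, with a median of -0.0002, beside 16.4% and 15.8% of all such regions. The shift to higher values without an ES cell course peak was not seen in that subset. The difference between the classes of 12h-only regions kept its direction under each scaling, and it was not tested as a difference.

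Single regions are named by their fold change among those that passed the test, were stronger than the median of all regions and had groups that did not overlap; weaker regions with larger folds are left out. A region in Arap1, which encodes a regulator of Arf GTPases, at chr7:101397708-101397907, had 3.54, 3.63 and 3.83 CPM with aphidicolin and 7.59, 8.82 and 8.12 CPM untreated. All 3 aphidicolin values lay below all 3 untreated ones, and the fold was -1.16 on the log2 scale (SE 0.10, adjusted p = 8.89e-06 by edgeR). The region 4101 bp from Dlx2, a homeobox gene of forebrain and neural crest, had 5.35, 5.55 and 5.33 CPM with aphidicolin and 10.2, 9.55 and 10.1 CPM untreated (log2 fold change -0.88, SE 0.09, adjusted p = 2.76e-05 by edgeR). At Lmtk3, a membrane kinase gene, the values were 6.87, 6.03 and 6.65 CPM with aphidicolin and 11.4, 10.6 and 11.2 CPM untreated, again without overlap. The region 62616 bp from Ccnd1, the gene of the G1 cyclin D1, had 4.13, 4.65 and 4.88 CPM with aphidicolin and 7.52, 7.44 and 6.85 CPM untreated (log2 fold change -0.67, SE 0.10, adjusted p = 0.00021 by edgeR). Regions in Pnkd, Pdzd7, Lonp1, a mitochondrial protease, and Fsip1 and near Mdga1 and Fam13c also fell, by 0.61 to 0.67 on the log2 scale. These 10 kept the call under each alternative that tested them, and 6 of the 10 had an ES cell course peak. A region in Acin1, below that strength, is given as a description with no test, since it entered the table by the untreated lists alone and was added after its values were seen. It had 1.52, 2.186 and 1.596 CPM with aphidicolin and 4.54, 3.99 and 3.65 CPM untreated, that is -1.19 on the log2 scale (SE 0.16).

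Another 10 regions above that strength were higher with aphidicolin. A region 73395 bp from Ankrd34c had 5.63, 5.61 and 5.04 CPM with aphidicolin and 2.32, 3.16 and 4.12 CPM untreated (log2 fold change 0.77, SE 0.15, adjusted p = 0.00109 by edgeR). In Gnl2, a nucleolar GTPase gene, the region had 5.86, 5.67 and 5.52 CPM with aphidicolin and 2.54, 3.92 and 3.77 CPM untreated (log2 fold change 0.74). Untreated library 1 was the lowest at both. The region 111772 bp from Gpam, an enzyme gene of triglyceride synthesis, had 6.71, 6.39 and 6.30 CPM with aphidicolin and 4.15, 4.77 and 4.52 CPM untreated (log2 fold change 0.53, SE 0.10, adjusted p = 0.00104 by edgeR). Regions in Pdlim5 and Dvl2, which encode an actin scaffold and a transducer of Wnt signals, rose by 0.53 and 0.45 on the log2 scale. These 5 kept the call under each alternative that tested them. In Clspn, whose product Claspin carries the checkpoint signal at stalled forks, the region had 4.32, 4.63 and 5.20 CPM with aphidicolin and 2.79, 4.12 and 3.50 CPM untreated. The groups did not overlap, with a log2 fold change of 0.45 (adjusted p = 0.017 by edgeR), but the call was lost without aphidicolin library 2 (0.46, adjusted p = 0.0526 by edgeR), aphidicolin library 3 (0.37) or untreated library 1 (0.30). Foxn2 lost it without untreated library 2 (0.54, adjusted p = 0.0513 by edgeR) and Gng12 without aphidicolin library 2 (0.40, adjusted p = 0.05003 by edgeR). The Gng12 and Fkbp1a regions entered the table by the aphidicolin lists alone, with 0 and 2 untreated lists, so their higher values support nothing further. Ino80 and Fkbp1a lost it with offsets that follow strength (0.34 and 0.31), Fkbp1a also with DESeq2 (0.33), and both when single libraries were left out, Ino80 without aphidicolin 2 or 3 or untreated 1 or 2 (0.32 to 0.38), and Fkbp1a without any one of aphidicolin 1, 2 and 3 or untreated 1 and 2 (0.24 to 0.36). Of the 10 regions named in this direction, Dvl2 alone had an ES cell course peak.

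**Figure D4:**
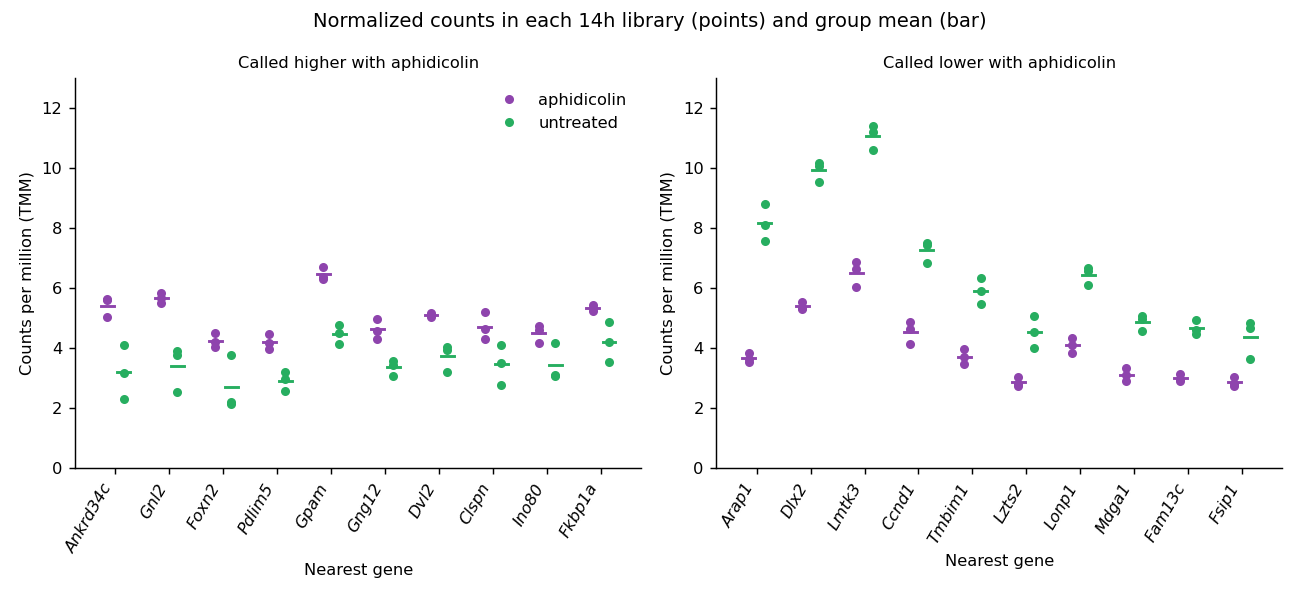
TMM-normalized CPM (y axis) in each of 3 aphidicolin and 3 untreated libraries (points, with the group mean as a bar) for the 10 regions with the largest log2 fold change in each direction among those that passed the test, were stronger than the median of all regions and had no overlap of groups, named by the nearest gene end (x axis), which is Tmbim1 for the Pnkd region and Lzts2 for the Pdzd7 region. The largest log2 fold change drawn is at Arap1, with 3.54 to 3.83 CPM with aphidicolin and 7.59 to 8.82 CPM untreated.

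Loci of 15 lists of genes with known roles held few of the sites. With 10 kb on each side, 18 of 202 listed genes (8.91%) had a 12h-only site, against 7.27% of all 21887 protein-coding genes, and 20 sites made up 1.28% of the 12h peaks there, against 1.29% over all genes. Fibroblast genes held the most, 9 sites at 7 of 27 genes: 2 each at the collagen gene Col5a1 and the mesenchymal repressor gene Zeb2, and 1 each at Pdgfrb, a growth factor receptor, Fap, a surface protease, Vim and Cdh2, which encode vimentin and N-cadherin, and Runx1. Their loci also held 411 other 12h peaks, so the 12h-only sites made up 2.14% of the 12h peaks there. Of AP-1 genes Jun (5200 bp outside the gene) and Junb had a site. Of TEAD and YAP genes, Tead1 (2365 bp outside), Ccn1 (9859 bp outside) and Amotl2 had one. Single sites lay inside Dnmt3a and Ncam1, and outside Lin28b (8334 bp), Foxa2 (3073 bp), Gins2 (9560 bp) and Tubb3 (6970 bp). The nearest gene end to the Tubb3 site was that of Tcf25, at 123 bp. The loci of 14 naive pluripotency genes held 55 other 12h peaks and no 12h-only site, and none was found at the lists of epithelial, early reprogramming marker, p53, ubiquitous, macrophage or endothelial genes, which hold 8 to 18 genes each. Those lists held 35 to 132 other 12h peaks, where the share of 1.29% over all genes gives few sites or none. Their lack of a site is thus no trait of these genes.

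Of these 20 sites, 8 had an ES cell course peak, among them that in Dnmt3a, the de novo DNA methyltransferase gene, with scores of 1989, 1389 and 1414, and that in Pdgfrb with 1902, 1207 and 1177. Counts were available at 7 of the loci. At 6 of the 7 the region entered the table by the aphidicolin lists alone, so higher values there are a description with no test. Fap had 1.38, 1.43 and 1.35 CPM with aphidicolin and 0.86, 1.02 and 0.80 CPM untreated, that is 0.63 on the log2 scale (SE 0.19). The log2 fold changes at Ncam1 and Foxa2 were 0.60 and 0.61. With offsets that follow strength these 3 values were 0.31, 0.41 and 0.21. At Junb, in the table by both groups, the region had 11.1, 10.8 and 10.9 CPM with aphidicolin and 15.7, 13.2 and 12.3 CPM untreated, that is -0.33 on the log2 scale (SE 0.09, adjusted p = 0.0107 by edgeR). It lost the call without aphidicolin library 2 (-0.32, adjusted p = 0.0556 by edgeR), with library totals (-0.17) and with offsets that follow strength (-0.20). Dnmt3a and Amotl2 did not pass the test, with log2 fold changes of -0.16 and -0.21, and Dnmt3a was at 0.04 without untreated library 1. Tead1 did not pass it either (-0.54), but it passed with offsets that follow strength (-1.33, adjusted p = 0.0277 by edgeR) and was at 0.24 without untreated library 2. Accessible sites near a gene do not measure its RNA, which was not analysed here.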

How the data were processed

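The peak lists and the count table were used as deposited. Per the submitters' processing notes, the tools were MACS2 2.2.0 for peaks, Bowtie2 2.2.5 for alignment to mm10, cutadapt 2.2.0, SAMtools 1.4.1, bedtools 2.26.0 and bcl2fastq 2.19.1. Parameters, and any shift of reads for the Tn5 cut, are not given in the sources used here. Each deposited list gives a peak caller's score per peak, made by the authors. It describes peaks within a list, except that the ranking of the strongest sites takes the weaker of 2 arm scores, whose scales may differ. Per the peak names, reprogramming lists were called on merged replicates. The list of the nascent bulk arm was assigned by its name. The authors deposited raw counts for 6 libraries, whose column numbers no source ties to a sample.

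Overlaps (1 bp or more) were found with bedtools 2.31.1. Other 12h peaks were weighted to the 12h-only sites by bins of score with edges at 100, 200 and 400, or by bins of score and width. The top bins have no upper limit. Counts were tested two-sided with edgeR 4.0.16 (glmQLFit, glmQLFTest, TMM, filterByExpr) in R 4.3.3. On simulated data with 19998 regions, 100 were changed 1.5-fold and 100 were changed 2-fold, at all strengths and with no trend of fold with strength. Of these changes 73% and 95% were recovered, and 4% of calls were false. In the real counts 35.9% of regions were called, folds ran with strength, and the 12h-only regions were weak. The simulated rates therefore do not carry over to them. No pair of libraries agreed within sampling noise (lowest chi-square over its degrees of freedom 1.88). Offsets that follow strength were fitted by loess on the mean log count. Since the labels name no separate cultures, p-values measure a spread between samples that may be technical.

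Gene models were 21887 protein-coding genes of GRCm38.p6. With no genome at hand, motifs were searched in promoter windows alone. Sites named are the strongest 10, those with a nascent peak at 12h, the most widely listed 5, the loci with the most sites, up to 4 genes per list, and, in each direction, the 10 regions of largest fold that passed the test, were above the median log2 CPM of all regions and had groups that did not overlap. Acin1, as a count region, was added after its values were seen. The sites and gene lists were chosen with earlier results of these data known.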

Additional observations from a re-analysis of the deposited data

How the results depend on the processing

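The number of 12h-only sites was 1787 to 2478 with overlaps of at least 0.5 of either peak, a distance of over 500 bp from 6h and 36h peaks, a 12h score of 50 or more, or mature arm peaks as the unit. It was 7696 when only the nascent arm lists of 6h and 36h had to be free of a peak, and 3751 with only the mature arm lists, since fewer lists then exclude a site.

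Differences in share from other 12h peaks, in percentage points, moved when other 12h peaks were weighted to the same bins of score. They moved again with the same bins of score and width, a choice added after the data were seen. Other 12h peaks reach far higher scores within the open top bin, so part of a difference can come from that bin. These 2 values were -1.13 and -0.23 for the 12h nascent list, -8.14 and -5.42 for 12h mature, 1.68 and 5.14 for ES cells at 0h, 5.18 and 8.58 at 9h, 2.42 and 5.65 for EpiLC at 48h, and 4.05 and 7.99 for any of these. They were -14.6 and -11.3 for any 60h fraction, -5.42 and -0.43 for any aphidicolin library, -0.90 and 3.68 for any untreated library, -1.37 and -0.24 for gene ends, and -1.01 and -1.79 for gene bodies.

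Regions called higher and lower with aphidicolin numbered 150 and 132. They were 233 and 76 with library totals, 42 and 205 with offsets that follow strength (median log2 fold change -0.20), and 39 and 72 among regions with a peak in all 6 lists. Leaving out 1 library in turn gave 86 to 169 higher and 97 to 133 lower, beside 11.0% to 21.5% and 10.9% to 20.2% of all regions. DESeq2's Wald test gave 117 and 118, beside 14.3% and 16.8% of all regions. Same-numbered columns correlated at 0.26, 0.01 and 0.15 in their deviations from the group means, and unlike-numbered ones at -0.25 to 0.14. These values do not settle whether the numbers pair samples. Since no source ties the numbers to samples, the main fit did not pair them. With the replicate block 177 were higher and 145 lower, beside 21.6% and 21.9% of all regions. No named region that passed the test changed sign in these alternatives. Motif windows about peak centres were not run. Counts reach 790 of the 2352 sites, and 1 list per group leaves list shares without a replicate error.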
